A study of Mus musculus with 8 samples.

Results

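The genes described here are 8 transcription regulators of the smooth muscle programme: Srf, its coactivator Myocd, the MEF2 factors Mef2a, Mef2c and Mef2d, the PR-domain factor Prdm6, and the TEAD factors Tead1 and Tead3. Every probe set annotated to a single one of these genes was taken, whatever its values, which gave 22 of the 45101 probe sets on the array. Each was compared between 2 vessels of fetal mice, the ductus arteriosus and the aorta, and set beside Myh11, the smooth muscle myosin heavy chain, which had 2 probe sets.

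The ductus arteriosus links the pulmonary artery with the aorta before birth, shunting blood past the lungs, and contracts shut afterwards; its wall is rich in contractile smooth muscle. Both groups came from untreated wild-type mice whose strain is labelled CD88, on day 19 of gestation: 4 arrays of ductus arteriosus and 4 arrays of aortic segments. Each array held the total RNA of a pool made from the pups of a single litter, at most 10 of them, so a difference is read against the spread between litter pools. The values are robust multi-array average (RMA) levels on the log2 scale, on which a difference of 1 is a doubling. They are normalized across arrays and are set against each other only within a probe set.

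As background, SRF is a MADS-box factor that binds CArG boxes in the promoters of contractile and immediate early genes, and myocardin, the product of Myocd, binds SRF and turns on the contractile set in smooth and cardiac muscle. MEF2 factors bind a related AT-rich site and are held in check by class IIa histone deacetylases until calcium signals release them. TEAD factors bind the MCAT element (CATTCC) and act with the Hippo pathway coactivators YAP and TAZ, and PRDM6 is a repressor that holds smooth muscle precursors in a proliferating state.

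Of the 22 probe sets of these regulators, 1 was higher in the ductus and 0 were lower by limma at a Benjamini-Hochberg adjusted p under 0.05, and that probe set belonged to Tead1. Over all 45037 probe sets tested, 1.26% were called higher in the ductus and 1.2% lower (2.46% in all), so the regulators were called at a rate that rests on this single probe set. Myh11 was 2.00-fold higher in the ductus, while the brightest probe set of Myocd differed by -0.0062 on the log2 scale (95% interval -0.28 to 0.27). The 5 probe sets of Mef2c all had lower means in the ductus (differences of -0.47 to -0.11), and 0 of them passed. The median difference was -0.034 over the 22 probe sets and -0.021 over all probe sets. An unadjusted p under 0.05 was reached by 5 of the 22, both Tead1 probe sets and 3 of Mef2c. The share of all probe sets at that threshold was not taken, so this count cannot be set against it. The vessels did not overlap for 4 of the 22, against 9.25% of all probe sets: 2 were higher in the ductus (4.31% of all) and 2 lower (4.94% of all).

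**Figure D1:**
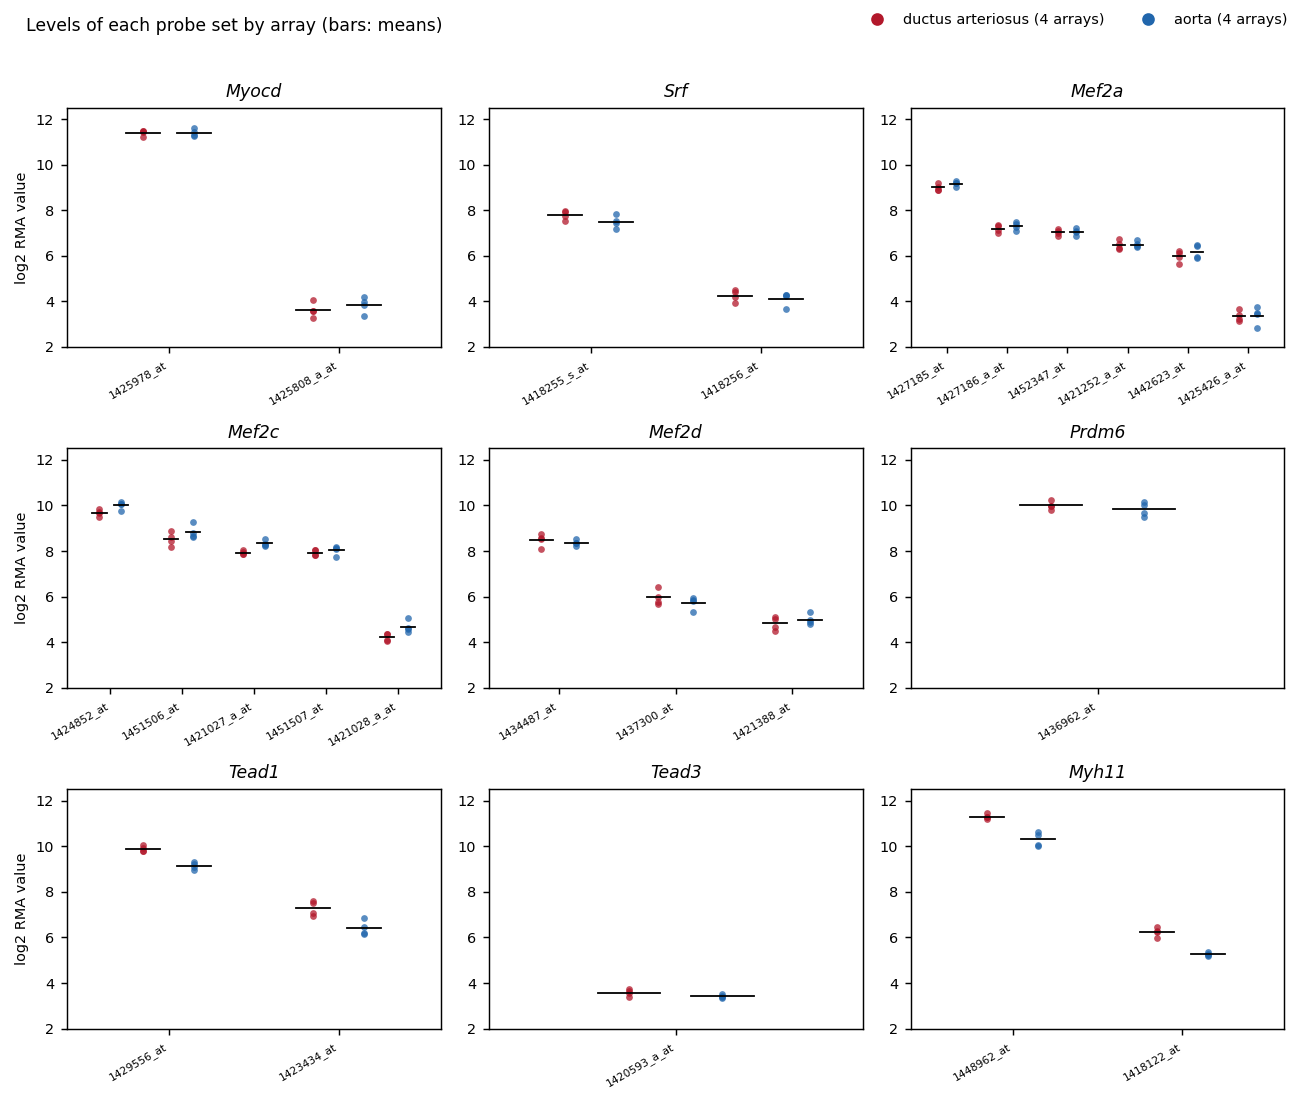
Level of every probe set of the 8 regulators and of Myh11 on each array, in log2 RMA units (vertical axis), with ductus points left of aorta points and a bar at each mean of 4 arrays. The ductus and aorta points separate for both Tead1 and both Myh11 probe sets, and for 2 of the 5 Mef2c probe sets, where the ductus is lower.

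The labelled tissues were first set against their defining markers. Smooth muscle markers averaged 9.94 to 10.50 on the ductus arrays and 8.84 to 9.60 on the aorta arrays over 8 genes, so smooth muscle RNA was strong in both vessels and higher in the ductus, with 3 of the 8 genes called higher. Endothelial markers ran the other way, with means of 7.16 to 7.33 on ductus arrays and 7.51 to 7.96 on aorta arrays, and 3 of 12 (Pecam1, Tek and Cldn5) were called lower in the ductus. Mesothelial markers averaged 6.33 to 6.92 in the ductus and 7.48 to 8.84 in the aorta, with 7 of 10 called lower in the ductus. Skeletal muscle markers stood apart on a single array, ductus replicate 3, at 6.56, against 4.25 to 4.53 on the other ductus arrays and 3.94 to 4.45 on aorta arrays. Thymocyte markers varied within both vessels, over 4.17 to 7.17 on ductus arrays and 3.84 to 6.40 on aorta arrays. Airway epithelial markers had the largest mean excess in the ductus of any list, 1.35, with a highest single difference of 5.15. Their median difference was 0.55, below those of thymocyte (1.01), skeletal muscle (0.88) and smooth muscle (0.75) markers. The airway markers averaged 4.97 to 6.15 on ductus arrays and 3.83 to 4.86 on aorta arrays, with 2 of 8 genes called higher. In such whole-vessel RNA, fewer cells of a type and less RNA per cell cannot be told apart, and the part of these markers in the results below was not tested beyond the fits given beside each.

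**Figure D2:**
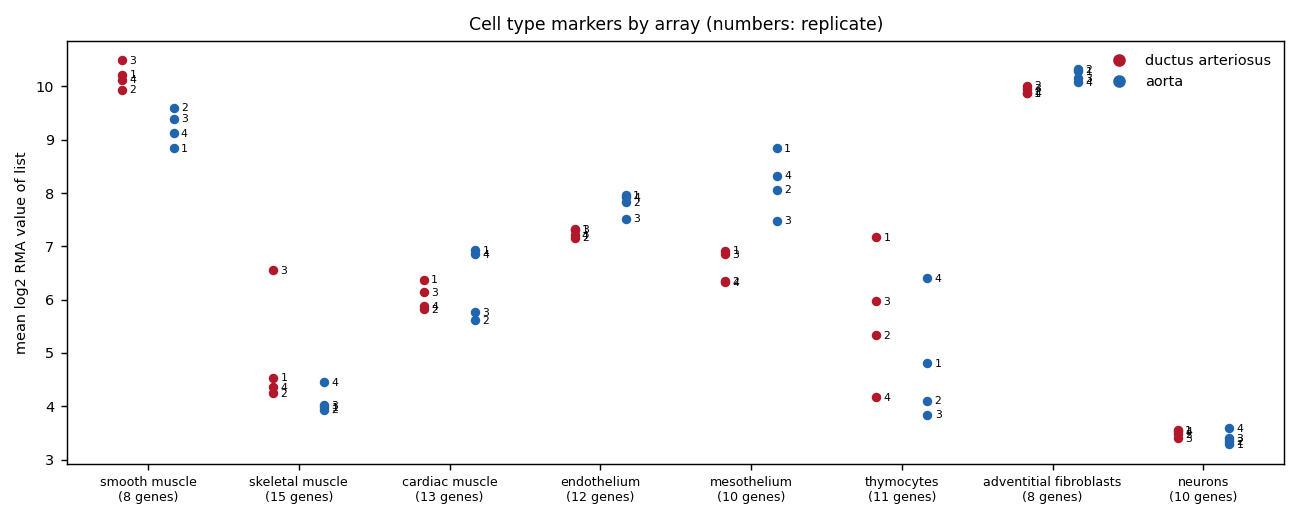
Mean log2 RMA value of lists of cell type markers (vertical axis) on each array, ductus left of aorta, with the replicate number beside each point. The airway epithelial list is not drawn. Smooth muscle is higher on all 4 ductus arrays, mesothelium and endothelium are higher on all 4 aorta arrays, and skeletal muscle is high on ductus replicate 3.

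Myh11 gave the scale against which the regulators were set. Its brighter probe set, 1448962_at, had 11.27, 11.30, 11.46 and 11.19 in the ductus, against 10.02, 10.61, 10.49 and 10.08 in the aorta. All 4 ductus arrays lay above all 4 aorta arrays, by a log2 difference of 1.00 ± 0.15 (SE, n = 4 each; limma adjusted p = 0.00865). The second probe set, 1418122_at, averaged 6.24 ± 0.20 in the ductus and 5.26 ± 0.092 in the aorta (SD, n = 4 each), a 1.97-fold difference (limma adjusted p = 0.00311). Myh11 was called on both probe sets in each of the 8 fits that left out an array.

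Srf is the DNA-binding partner on which myocardin acts. Its promoter is shown because it is the only window of these regulators that held CArG boxes, the element that SRF itself binds. RefSeq windows (GRCm38.p6, 300 bases around a start site) matched 5 of the 8 genes, with 9 windows in all. The CArG box was searched on both strands and was held by 1.63% of 32851 promoter windows. The Srf window, chr17:46556113-46556412 on the minus strand, held 2 of them, in capitals, whose first bases lie at -82 and -62 from the start:
Srf: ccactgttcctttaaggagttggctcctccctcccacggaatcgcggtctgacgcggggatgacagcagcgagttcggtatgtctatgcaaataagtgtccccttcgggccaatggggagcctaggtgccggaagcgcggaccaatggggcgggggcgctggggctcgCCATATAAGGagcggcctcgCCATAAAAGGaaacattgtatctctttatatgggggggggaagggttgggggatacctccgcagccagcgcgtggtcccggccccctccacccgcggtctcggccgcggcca
The match is a description of the letters and not of a bound site.

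Srf was not called on either probe set. Probe set 1418255_s_at had 7.98, 7.90, 7.76 and 7.53 in the ductus, against 7.16, 7.85, 7.46 and 7.54 in the aorta. The ranges overlapped, with aorta replicate 2 inside the ductus range and aorta replicate 1 lowest of the 8 arrays. The difference was 0.29 ± 0.16 (SE, n = 4 each; 95% interval -0.077 to 0.66; limma adjusted p = 0.496). The suffix _s_at means that such a probe set can detect more than a single transcript. The other probe set, 1418256_at, read at a lower level, 4.25 ± 0.25 in the ductus and 4.12 ± 0.31 in the aorta (SD, n = 4 each), and its difference of 0.14 had a 95% interval of -0.27 to 0.55 (limma adjusted p = 0.813). The upper end of the first interval corresponds to a 1.58-fold higher Srf level in the ductus, which these 8 arrays do not exclude.

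Myocd, the coactivator that gives SRF its smooth muscle targets, did not differ between the vessels beyond the spread of the pools. Probe set 1425978_at had 11.43, 11.46, 11.22 and 11.49 in the ductus, against 11.25, 11.31, 11.45 and 11.62 in the aorta. The vessels overlapped, with the highest value on aorta replicate 4 and the lowest on ductus replicate 3. The difference was -0.0062 ± 0.12 (SE, n = 4 each; limma adjusted p = 0.989), with a 95% interval of 0.825-fold to 1.20-fold for ductus over aorta, while Myh11 was 1.58-fold to 2.55-fold higher on the same arrays. A second probe set for alternative transcripts, 1425808_a_at, read low, with means of 3.61 ± 0.32 in the ductus and 3.85 ± 0.34 in the aorta (SD, n = 4 each), and did not pass (log2 difference -0.23; limma adjusted p = 0.692).

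The MEF2 factors bind beside and together with other muscle factors and are best known for skeletal, cardiac and vascular development. The Mef2a window is shown because it held the only MEF2 site among the 9 windows, a motif found on either strand in 3.19% of all promoter windows. It lies at chr7:67372809-67373108 on the minus strand, with the site in capitals across the start:
Mef2a: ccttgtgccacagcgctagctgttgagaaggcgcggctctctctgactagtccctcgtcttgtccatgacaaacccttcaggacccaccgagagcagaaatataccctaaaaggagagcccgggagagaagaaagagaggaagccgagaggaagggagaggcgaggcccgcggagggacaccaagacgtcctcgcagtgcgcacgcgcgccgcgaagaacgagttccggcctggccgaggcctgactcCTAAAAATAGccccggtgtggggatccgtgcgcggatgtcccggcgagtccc

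Mef2c, the MEF2 factor required for the early heart and its vessels, had 5 probe sets, all with a lower mean in the ductus, and 0 were called. The brightest, 1424852_at, had 9.83, 9.48, 9.65 and 9.74 in the ductus, against 9.76, 10.07, 10.07 and 10.16 in the aorta. Ductus replicate 1 lay above aorta replicate 1, and the other 3 aorta arrays lay above every ductus array. The difference was -0.34 ± 0.13 (SE, n = 4 each; 95% interval -0.63 to -0.053; limma adjusted p = 0.265).

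The 2 Mef2c probe sets without overlap were 1421027_a_at and 1421028_a_at. The first had 8.05, 7.94, 7.86 and 7.87 in the ductus, against 8.24, 8.54, 8.26 and 8.32 in the aorta, a difference of -0.41 ± 0.11 (SE, n = 4 each; limma adjusted p = 0.112). The second had 4.03, 4.35, 4.11 and 4.36 in the ductus, against 4.60, 4.63, 4.46 and 5.05 in the aorta, a difference of -0.47 ± 0.15 (SE, n = 4 each; limma adjusted p = 0.180). Every ductus array of both lay below every aorta array, as 4.94% of all probe sets also did. The remaining probe sets, 1451506_at and 1451507_at, differed by -0.31 and -0.11 with overlap. Taken as the mean over its 5 probe sets, Mef2c differed by -0.33 (limma adjusted p = 0.130 over genes). These probe sets read the same gene in the same pools and are not 5 replicates.

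Mef2a, a broadly expressed MEF2 factor, had 6 probe sets with small negative differences, -0.21 to -0.018, and adjusted p between 0.607 and 0.973 by limma. Its brightest, 1427185_at, had 9.03, 8.87, 9.21 and 8.89 in the ductus, against 9.19, 9.30, 9.19 and 9.0 in the aorta. Ductus replicate 3 lay among the higher aorta arrays, and the interval of its difference, -0.17, ran from -0.44 to 0.099. Mef2d, which can act as a repressor with histone deacetylases before muscle differentiation, split between its 3 probe sets. The differences were 0.14 for 1434487_at, 0.23 for 1437300_at and -0.16 for 1421388_at, with adjusted p between 0.675 and 0.772 by limma. On 1434487_at the ductus arrays had 8.59, 8.76, 8.51 and 8.11, against 8.54, 8.33, 8.35 and 8.20 in the aorta, so the ductus held both the highest and the lowest array.

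Prdm6 encodes a repressor that works through chromatin modifiers. Its probe set, 1436962_at, had 9.81, 10.24, 9.99 and 10.00 in the ductus, against 9.47, 10.03, 10.17 and 9.68 in the aorta. The ranges overlapped, with the 2 lowest arrays, replicates 1 and 4, in the aorta. The difference was 0.17 ± 0.17 (SE, n = 4 each; limma adjusted p = 0.736), and its interval of -0.21 to 0.55 allows up to a 1.47-fold higher level in the ductus.

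Tead1, a TEAD factor that binds MCAT elements of muscle genes, was the regulator that rose. Probe set 1429556_at had 9.91, 9.78, 9.81 and 10.05 in the ductus, against 9.22, 9.11, 9.30 and 8.98 in the aorta. All 4 ductus arrays lay above all 4 aorta arrays, with a gap wider than the range within either vessel. The level was 1.66-fold higher in the ductus (95% interval 1.39-fold to 1.99-fold; log2 difference 0.73 ± 0.12, SE, n = 4 each; limma adjusted p = 0.0102). It was called in each of the 8 fits that left out an array, with differences of 0.68 to 0.78 and adjusted p of 0.0158 to 0.0387 by limma.

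The other Tead1 probe set pointed the same way with more spread. Probe set 1423434_at had 7.62, 6.93, 7.05 and 7.51 in the ductus, against 6.84, 6.16, 6.18 and 6.47 in the aorta. The groups did not overlap, and aorta replicate 1 came within a small step of ductus replicate 2. The difference was 0.87 ± 0.20 (SE, n = 4 each; 1.83-fold), which did not pass (limma adjusted p = 0.0636). Without aorta replicate 1 it did (difference 1.01; limma adjusted p = 0.0388), so 2 probe sets were then called. The mean over both probe sets differed by 0.80 (limma adjusted p = 0.00894 over genes).

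Between the vessels, Tead1 differed in the same direction as the smooth muscle markers and opposite to the endothelial and mesothelial ones. Their levels by array are given above. Among the aorta arrays, replicate 1 was lowest for the smooth muscle markers (8.84) and highest for Tead1 1423434_at (6.84). For the called probe set, 1429556_at, replicate 3 was highest of the aorta arrays (9.30) and replicate 1 had 9.22. No fit with the smooth muscle markers as covariate was run, and their part in the Tead1 difference was not tested. In added fits, chosen once the data had been seen, with the mean skeletal muscle or thymocyte markers as a covariate, the difference of 1429556_at was 0.78 (limma adjusted p = 0.0348) or 0.79 (limma adjusted p = 0.0107). With the mean endothelial markers as covariate it was 0.51 and did not pass (limma adjusted p = 0.739), while 1423434_at differed by 1.49, in place of 0.87, and did not pass either (limma adjusted p = 0.439). The endothelial mean did not overlap between the vessels, so in that fit tissue and covariate could hardly be told apart, and Myh11 1448962_at was not called either (difference 0.61; limma adjusted p = 0.768).

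Tead3 is a related TEAD factor. A window of its promoter is shown because it held 3 copies of CATTCC, the core of the element that TEAD factors bind, counted on both strands. The motif was held by 14.7% of all promoter windows. The window is chr17:28350551-28350850 on the minus strand, with each copy in capitals, the last as its reverse complement:
Tead3: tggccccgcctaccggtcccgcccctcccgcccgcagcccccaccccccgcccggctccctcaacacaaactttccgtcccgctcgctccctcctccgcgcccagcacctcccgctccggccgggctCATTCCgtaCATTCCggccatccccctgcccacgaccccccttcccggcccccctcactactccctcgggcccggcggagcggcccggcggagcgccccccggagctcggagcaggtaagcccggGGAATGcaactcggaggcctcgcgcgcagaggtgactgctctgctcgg
Tead3 itself read low, with 3.37, 3.58, 3.63 and 3.72 in the ductus, against 3.38, 3.52, 3.42 and 3.33 in the aorta. Ductus replicate 1 lay among the aorta arrays, and the other 3 lay above them. The difference of 0.16 ± 0.11 (SE, n = 4 each) did not pass (limma adjusted p = 0.606).

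**Figure D3:**
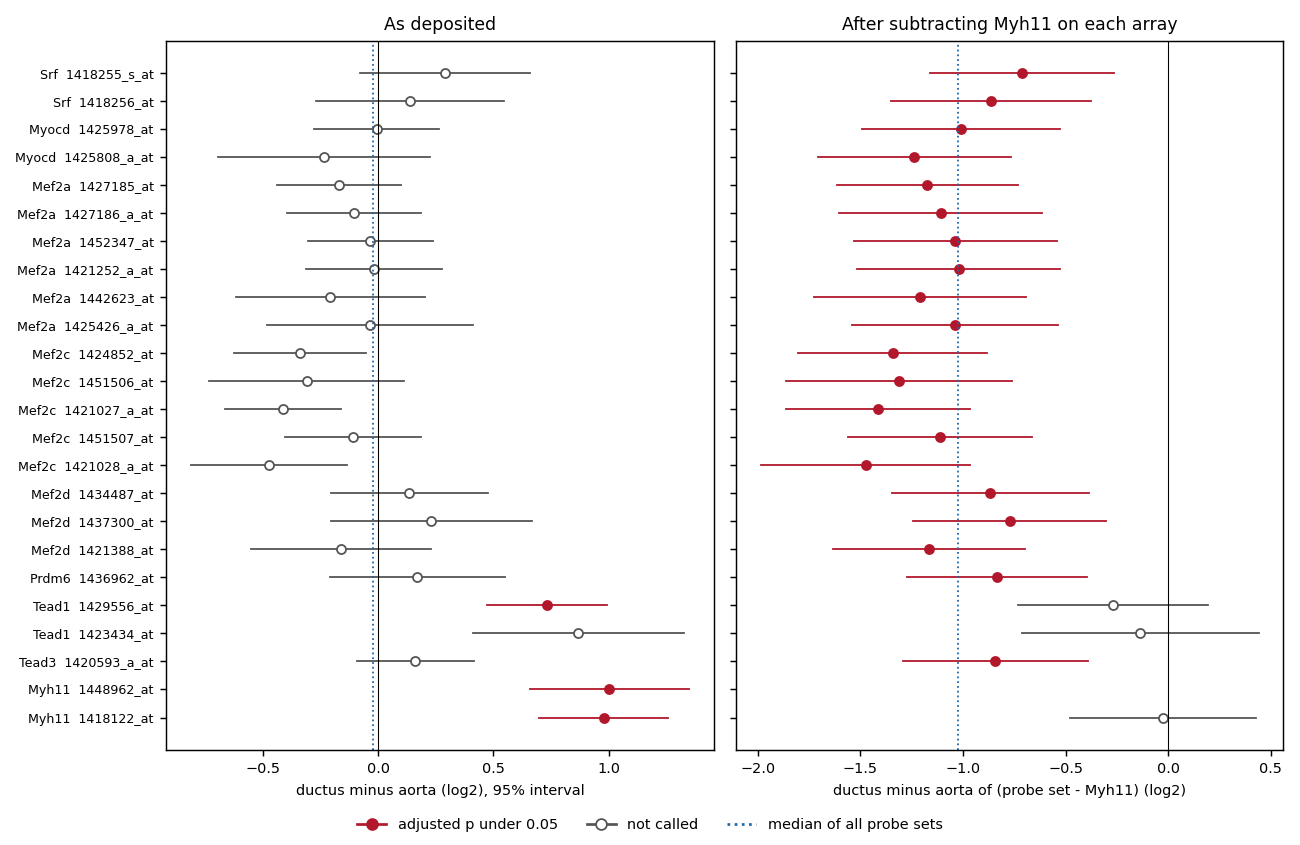
Difference of each probe set, ductus minus aorta, in log2 units with its 95% interval (horizontal axis), as deposited (left panel) and after subtracting Myh11 1448962_at on each array (right panel). Filled points had an adjusted p under 0.05 by limma, and the dotted line is the median of all probe sets, -0.021 on the left and -1.02 on the right. Only 1 Tead1 and both Myh11 probe sets have filled points on the left, and only both Tead1 and the second Myh11 probe set have open points on the right.

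Setting each regulator beside Myh11 asked whether it was as much higher in the ductus as the myosin gene. The log2 value of Myh11 1448962_at was subtracted on each array and the fit was repeated over the other 45036 probe sets. Of the 22 probe sets, 20 were then lower in the ductus and 2, both of Tead1, were not called. This count says little about the regulators, since 94.6% of all probe sets were called lower and 0.417% higher in the same fit, and the median was -1.04 over the 22 and -1.02 over all. Subtracting a gene that is itself 2.00-fold higher moves nearly every probe set down.

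The relative differences are therefore given as sizes. Every probe set carries the same Myh11 values in this fit, so the spreads that limma pools are not independent. The intervals and adjusted p below may be too narrow for that reason. Myocd 1425978_at stood 0.16, 0.16, -0.23 and 0.30 from Myh11 on the ductus arrays, against 1.23, 0.69, 0.95 and 1.54 on the aorta arrays. The 2 ranges were far apart, with a relative difference of -1.01 ± 0.23 (SE, n = 4 each; limma adjusted p = 0.000483). Srf 1418255_s_at had a relative difference of -0.71 (interval -1.16 to -0.26), Prdm6 one of -0.83 (interval -1.27 to -0.39), and the Mef2c probe sets had -1.47 to -1.11. Tead1 had relative differences of -0.27 for 1429556_at (interval -0.73 to 0.19; limma adjusted p = 0.246) and -0.14 for 1423434_at (interval -0.71 to 0.44; limma adjusted p = 0.635). The intervals leave room for Tead1 differing from Myh11 in either direction, and do not show that the genes moved alike.

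These counts depended on the yardstick. With the second Myh11 probe set or the mean of the 8 smooth muscle markers in its place, 20 were called lower, against 94.6% and 92.1% of all probe sets. The relative differences of Tead1 stayed negative (-0.22 and -0.087 with the marker mean, neither called). Neither yardstick is independent of the first, since the 8 markers include Myh11. With Acta2, the vascular smooth muscle actin, whose own difference was 0.21, 0 of the 22 were called lower, against 2.48% of all probe sets. With Tagln, the SM22 gene, whose difference was 0.48, 8 were called lower, against 22.7% of all. The relative difference of Tead1 turned positive with Acta2 and Tagln, at 0.53 and 0.25 for 1429556_at and at 0.66 and 0.38 for 1423434_at, and was not called with either.

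**Figure D4:**
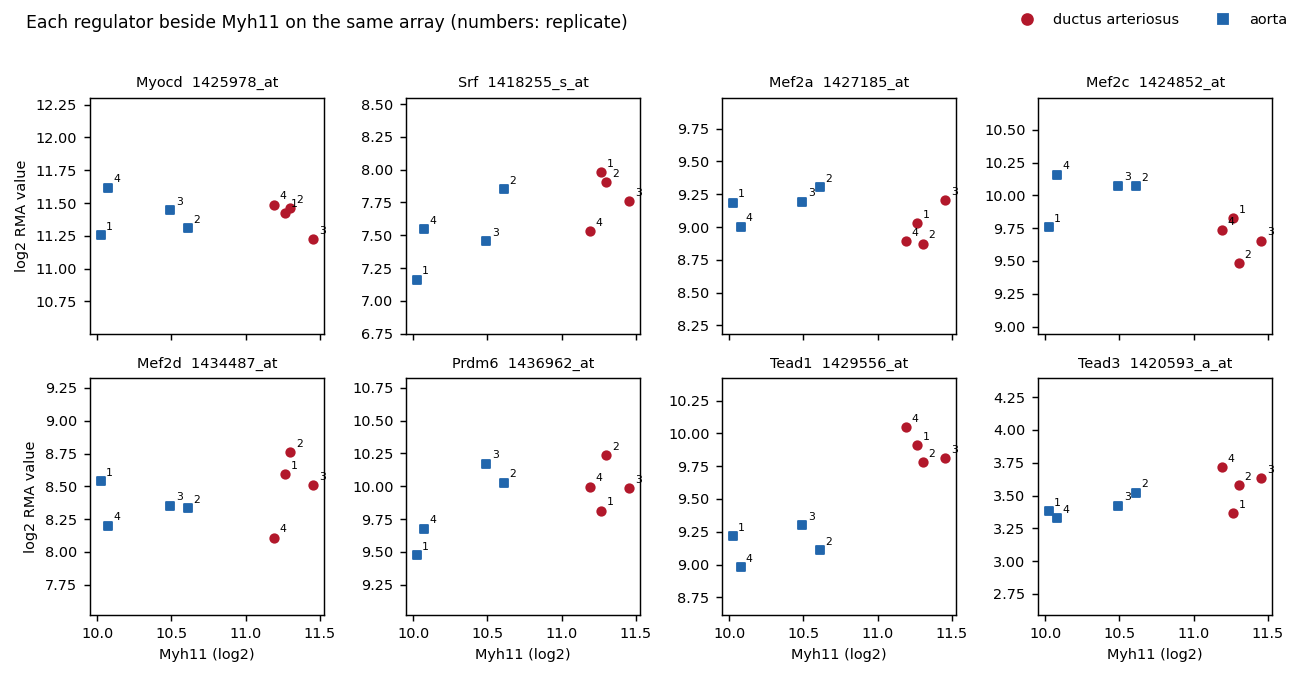
Level of the brightest probe set of each regulator (vertical axis, log2 RMA, each panel spanning the same height) against Myh11 1448962_at on the same array (horizontal axis, log2 RMA), with replicate numbers. Ductus circles lie to the right of aorta squares in every panel, and only for Tead1 do they also lie wholly above.

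The wider machinery around these regulators was read from 8 gene lists, with each gene taken at its brightest probe set. Over all 18193 genes, 1.61% were called higher in the ductus and 1.69% lower (3.3% in all), with a median difference of -0.032. Of the 161 genes in the lists, 11 were higher and 5 lower (9.94%). The lists were written with earlier results of these data known, so this share is a description. Counts at an unadjusted p under 0.05 are given below without a share over all genes, which was not taken.

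Among SRF coactivators and partners, 1 of 19 measured genes was higher in the ductus and 2 were lower (list median -0.044). Fhl2, a LIM-domain cofactor of SRF, was higher by 0.86 ± 0.15 (SE, n = 4 each; limma adjusted p = 0.0164). The cardiac zinc-finger factors Gata5 and Gata4 fell by 1.11 and 1.90 on the log2 scale (limma adjusted p = 0.0101 and 0.0167), though only 1 of the 2 Gata4 probe sets was lower. Gata4 was highest, at 6.71, on aorta replicate 1, where the mesothelial markers were highest too. The myocardin-related coactivators, singled out for their role after their values were seen, were not called: Mrtfa differed by 0.011, and Mrtfb by -0.43 without overlap (limma adjusted p = 0.154). The calls of Fhl2 and Gata4 were each lost without ductus replicate 1, ductus replicate 4 or aorta replicate 2 (adjusted p up to 0.0593 and 0.0606 by limma).

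Among factors that oppose SRF or compete for it, 1 of 21 was higher and 1 lower (list median -0.064). Id2, an inhibitor of basic helix-loop-helix factors, had 10.71, 10.65, 10.70 and 10.61 in the ductus, against 9.97, 9.96, 9.96 and 9.87 in the aorta. It was higher by 0.73 ± 0.095 at this brightest probe set (SE, n = 4 each; limma adjusted p = 0.00343). All 3 of its probe sets had a higher mean in the ductus. Hdac9, a class IIa histone deacetylase that represses MEF2 and SRF targets, fell by 1.36 ± 0.24 on the log2 scale (SE, n = 4 each; limma adjusted p = 0.0164), and its call was lost without ductus replicate 3 or aorta replicate 2. Its close relative Hdac5 and the SRF antagonist Klf4, both singled out after their values were seen, differed by -0.79 and -0.62 and did not pass (limma adjusted p = 0.0743 and 0.0916).

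Of 25 measured MEF2 regulators, 1 was higher and 2 were lower (list median -0.12). Camk2d, a calcium-dependent kinase that can drive the deacetylases out of the nucleus, had 8.72, 8.55, 8.86 and 8.78 in the ductus, against 7.53, 7.86, 8.05 and 7.13 in the aorta. It was 2.12-fold higher (limma adjusted p = 0.0174), in the same direction on all 7 of its probe sets, and kept its call in 4 of the 8 fits that left out an array. Hdac9 is on this list too. Cabin1, a calcineurin inhibitor that also represses MEF2, fell by 0.77 on the log2 scale (limma adjusted p = 0.0409) and lost its call in 7 of those 8 fits. Only 2 of its 3 probe sets had a lower mean in the ductus.

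The Hippo pathway around the TEAD factors showed 0 of 23 genes higher and 1 lower (3 and 3 at an unadjusted p under 0.05; list median -0.088). The gene lower in the ductus was Wwc1, or Kibra, an upstream activator of the kinase cascade that restrains YAP, which fell by 1.04 ± 0.16 on the log2 scale (SE, n = 4 each; limma adjusted p = 0.0100). It lay at 8.21 to 8.54 in the ductus, against 9.02 to 9.78 in the aorta. The coactivators, named for their role after their values were seen, were not called: Yap1 differed by -0.097 and Wwtr1, which encodes TAZ, by 0.31 (limma adjusted p = 0.825 and 0.287). The remaining TEAD genes, singled out likewise, differed by -0.53 for Tead2 and -0.088 for Tead4 and were not called, so Tead1 was the only called gene of the 4 TEAD genes on the array.

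Of 21 genes commonly listed as YAP and TEAD targets, 2 were higher in the ductus and 0 lower (8 and 3 at an unadjusted p under 0.05; list median 0.18). F3, the coagulation initiator tissue factor, had 6.78, 6.82, 6.79 and 7.08 in the ductus, against 3.69, 4.20, 4.11 and 4.28 in the aorta. Its 6.95-fold difference (limma adjusted p = 2.01e-05) was called in each fit that left out an array. Ccn1, a matricellular protein that is also an SRF target, was higher by 0.73 ± 0.12 at its brightest probe set (SE, n = 4 each; limma adjusted p = 0.0132). Its call was lost without ductus replicate 4 (limma adjusted p = 0.0502). All 4 of its probe sets had a higher mean in the ductus. Neither gene's dependence on Tead1 was measured here.

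Of the SRF-dependent contractile genes, 6 of 27 were higher in the ductus and 0 lower (13 and 1 at an unadjusted p under 0.05), with a list median of 0.27. Beside Myh11, these were the enteric-type actin Actg2 (2.97 ± 0.21), the intermediate filament gene Des (2.34 ± 0.25, on 1 of its 2 probe sets), the myosin light chain kinase Mylk (0.65 ± 0.11; each SE, n = 4 each), and the calponin Cnn1 and the collagen-binding integrin Itga1, the last 2 named after their values were seen. The count was 3 without ductus replicate 1, 3 or 4 or aorta replicate 2, and 4 to 6 without another array. Mylk lost its call without each of those 4 arrays (limma adjusted p up to 0.0587), while Actg2 and Des were called in all 8 such fits. Skeletal muscle also expresses Des, and its markers stood high on ductus replicate 3, without which 7 genes over all 8 lists were called higher in place of 11. CArG boxes lay in the promoter windows of 5 of the 24 contractile genes with a window, Fermt2, Fhl1, Myl6, Myl9 and Vcl. Of these 5, 0 were called by limma (differences 0.027 to 0.54), with 1, Fermt2, at an unadjusted p under 0.05. The called genes Myh11 and Actg2 had no window and could not be searched. Of the early and cytoskeletal targets of SRF and its MRTF coactivators, 1 of 23 was called higher and 0 lower, which was Ccn1 (6 and 3 at an unadjusted p under 0.05; list median 0.090).

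Of the 14 measured genes of the PRDM family and its partners, 0 were called by limma in either direction and 0 had an unadjusted p under 0.05 (list median 0.044). The largest differences were -0.38 for Prdm11 and 0.30 for Prdm10 (limma adjusted p = 0.40 and 0.493).

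**Figure D5:**
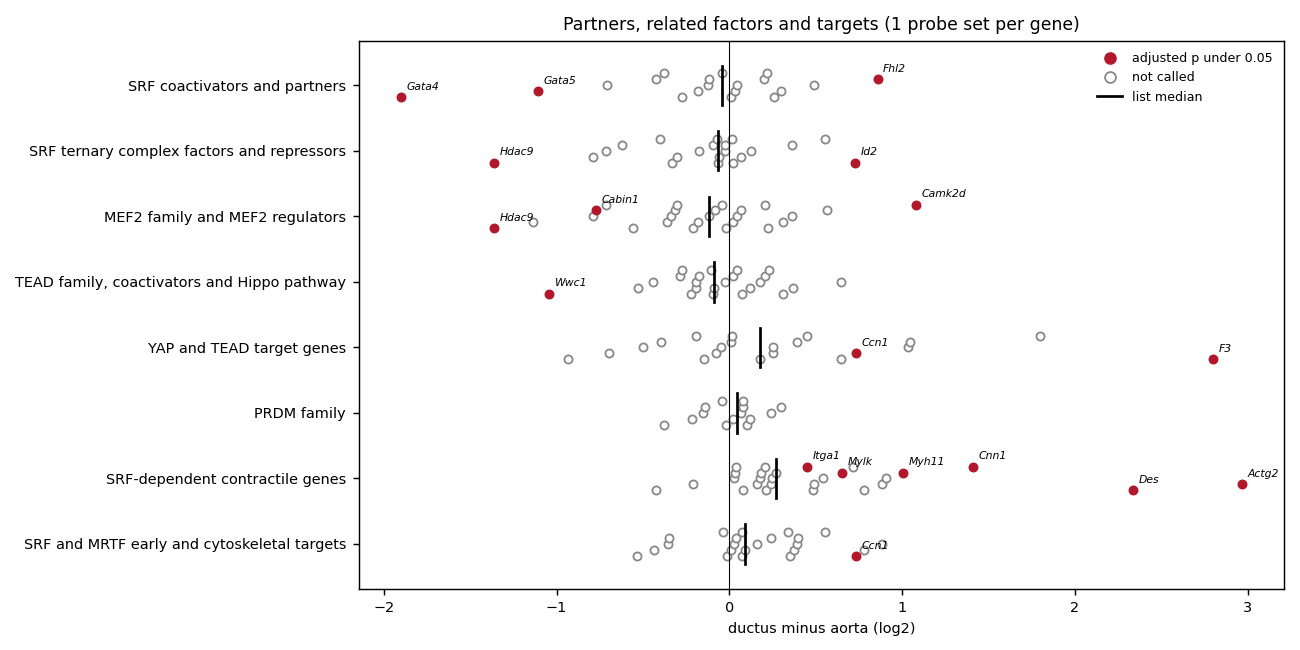
Difference of each measured gene of the 8 lists, ductus minus aorta, in log2 units (horizontal axis), with 1 point per gene at its brightest probe set, filled where the adjusted p was under 0.05 by limma, and a bar at each list median. Filled points lie on both sides of 0 for the SRF partner, SRF repressor and MEF2 lists. They lie to the right of 0 for contractile genes, early and cytoskeletal SRF targets, and YAP and TEAD targets. The Hippo list has its only filled point to the left, and the PRDM list has none.

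The genes whose levels followed each regulator most closely over the 8 arrays were ranked by Pearson r among 8264 genes with a mean above log2 6, a description in which the arrays share their tissue difference. For Tead1 1429556_at these were Eef1e1 (r = 0.985), Zfp9 (r = 0.983) and Esco2 (r = 0.981). Eef1e1 and Esco2 were themselves higher in the ductus, by 0.67 and 0.76 (limma adjusted p = 0.0188 and 0.0174), and Zfp9, with a difference of 0.44, did not pass (limma adjusted p = 0.0605). For Srf 1418255_s_at they were Orc2 (r = 0.975), Tgfb1i1 (r = 0.944) and Dock4 (r = 0.942), and for Mef2c 1424852_at Cyp39a1 (r = 0.985), Rnaseh2b (r = 0.963) and Rab3ip (r = 0.961), none of which was called between the vessels by limma. The closest for Myocd was Ebf2 (r = 0.923), for Mef2a Sdf2 (r = 0.967), for Mef2d Metap1d (r = 0.946), for Prdm6 Poc5 (r = 0.955), and for Tead3, among 8265 genes, Mthfd2l (r = 0.931).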

How the data were processed

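Expression was measured on Affymetrix mouse arrays from biotin-labelled cRNA of 8 pools. The deposited values are log2 levels made by the authors with Partek 6.6 and RMA, per the submitters' processing notes, their settings not being given in the sources used here. RNA extraction is named differently by the labels' protocol (Trizol) and the design text (a column kit). Values ran from 1.74 to 13.87, with array medians of 4.36 to 4.42, and the number of arrays limits the precision.

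Control probe sets (64) were left out. Symbols came from the platform annotation, updated by gene ID for 34741 probe sets; 34945 carried 1 gene, 932 several and 9160 were not listed. Ductus minus aorta was fitted in R 4.3.3 with limma 3.58.1 (lmFit, then eBayes; two-sided) over 45037 probe sets, called at an adjusted p under 0.05 with Benjamini-Hochberg adjustment over all of them. Genes were read at the probe set with the highest mean. No filter on low values was used. The labels do not say whether same-numbered arrays share a litter, and the numbers were not taken as pairs. The deviations of same-numbered arrays correlated at -0.27 to -0.19. Differently numbered arrays correlated at -0.37 to 0.53. The highest were ductus replicate 1 with aorta replicate 4 (0.53), 3 with 2 (0.43), 2 with 1 (0.38) and 4 with 3 (0.37). Whether these arrays share a litter was not tested, and no fit used these pairs. The fit was tested on simulated data.

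All probe sets of the regulators and of Myh11 are named, with up to 4 called genes per list by adjusted p (or the 2 with the largest difference where none was called) and the 3 most similar genes. Alternatives changed the scaling, low-value filter, probe set choice, variance prior, array weights, block, arrays and yardstick gene. The regulators and lists were chosen with earlier results of these data known. Promoters came from RefSeq (GRCm38.p6).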

Additional observations from a re-analysis of the deposited data

Results flagged for a closer look

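A single regulator value stood apart within its group. Srf 1418256_at read 3.66 on aorta replicate 1, against 4.22 to 4.30 on the other 3 aorta arrays, a gap of 0.878 of the group's range. Of 48 groups of 4 arrays examined this way for the regulators and Myh11, 1 was marked, and chance marks about 1 group in 20. The same array was the lowest of all 8 for 5 of the 22 regulator probe sets and for Myh11 1448962_at, and the highest for 4, all of Mef2a. There the smooth muscle markers were lowest (8.84) and the mesothelial (8.84) and endothelial (7.96) markers highest. Without it, the difference of Srf 1418256_at was -0.015 in place of 0.14 and was not called either way (limma adjusted p = 0.982).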

How the results depend on the processing

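Re-centring or quantile-normalizing the arrays again, and dropping the lowest 40% of probe sets, changed no direction and no call of a regulator, of Myh11 or of a list gene named by the rule, while 10 list genes in place of 11 were called higher after quantile normalization and the counts over all probe sets moved by less than 1.5 times. Regulator probe sets called higher in the ductus were 2 in place of 1, both of Tead1, under several settings. These were only means above log2 6, a trended robust prior, array weights or an adjusted p under 0.1. The count was 0 with a log2 difference of at least 1 required or with endothelial markers as covariate. Leaving out an array, it was 1 to 2. The replicate numbers share only a number; with the replicate block Tead1 1429556_at lost its call (limma adjusted p = 0.0788) and 1423434_at gained one (limma adjusted p = 0.0305), while 314 probe sets were called higher and 238 lower in place of 567 and 541, and 6 and 2 list genes in place of 11 and 5. Other counts of probe sets called higher were 328 (1 per gene by mean), 363 (by interquartile range), 317 (mean over probe sets), 357 (log2 difference of at least 1), 340 (skeletal muscle covariate) and 45 (endothelial covariate), with 369 to 468 leaving out an array. Lower calls were 298, 296 and 7 under the last 3 of these and 915 at an adjusted p under 0.1, with 272 to 541 leaving out an array. List genes called higher were 5 to 12 and lower 2 to 6 leaving out an array, and 9 were lower by the mean over probe sets. Relative to Acta2 or Tagln in place of Myh11, 0 and 8 regulator probe sets were called lower. Values that turned sign were uncalled on both sides, apart from Srf 1418255_s_at and Mef2d 1437300_at relative to Acta2, which were called lower relative to Myh11. With endothelial markers as covariate these were Srf 1418256_at at -0.46, Mef2a 1427186_a_at at 0.30, 1452347_at at 0.0079 and 1421252_a_at at 0.26, Mef2c 1451506_at at 0.064 and Prdm6 at -0.61. With skeletal muscle markers they were Myocd 1425978_at at 0.056 and Mef2a 1452347_at, 1421252_a_at and 1425426_a_at at 0.031, 0.048 and 0.093, the last at 0.046 with thymocyte markers; array weights put Myocd at 0.0063. Leaving out an array, Srf 1418256_at ran from -0.015 to 0.25, Myocd 1425978_at from -0.057 to 0.065, Mef2a 1452347_at from -0.10 to 0.025, 1421252_a_at from -0.10 to 0.046 and 1425426_a_at from -0.22 to 0.090, and Tead1 1423434_at relative to Myh11 from -0.32 to 0.10. Relative to Acta2, Srf 1418255_s_at was at 0.0815, Mef2d 1437300_at at 0.0226, and Tead1 at 0.53 and 0.66; relative to Tagln, Tead1 was at 0.25 and 0.38. The cause of these changes was not tested. No detection calls were used, so differences of dim probe sets such as Tead3 may be compressed.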
